A study of Mus musculus with 6 samples.

Results

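The enzymes that write and remove DNA methylation and the catalytic and core proteins of the Polycomb complexes were followed in sorted bone marrow cells of young and old mice. The set held 10 genes, Dnmt1, Dnmt3a, Dnmt3b, Tet1, Tet2, Tet3, Ezh1, Ezh2, Bmi1 and Suz12, chosen by name, and its members on the array were the non-control probes whose RefSeq accession belongs to one of these genes. Of the 55681 non-control probes 17 met this rule and stood for 9 of the genes. No probe was matched to Tet1, which is therefore not described further. Total RNA was extracted from cells of C57BL/6 mice that the labels call bone marrow mesenchymal stem cells, with 3 samples from mice aged 3 months (young) and 3 from mice aged 24 months (old), and each was hybridised to its own 1-colour Agilent array. No genotype, treatment or sex separates the groups in the labels, which also do not name the sorting markers or state whether each sample is a different animal. The p-values therefore measure the spread between these samples, which may be technical.

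DNA methyltransferases place methyl groups on cytosines that precede guanines. Dnmt1 copies the pattern to the new strand after replication, while Dnmt3a and Dnmt3b set it at new sites, and the Tet enzymes oxidise methylcytosine as the first step of its removal. Polycomb repressive complex 2 (PRC2) marks the tail of histone H3 with methyl groups through Ezh1 or Ezh2, held together by Suz12, and Polycomb repressive complex 1 (PRC1), which contains Bmi1, modifies histone H2A and compacts the marked chromatin. In bone marrow, mouse studies tie Bmi1 and Ezh2 to the self-renewal of blood stem cells and Dnmt3a and Tet2 to the balance between self-renewal and differentiation.

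The promoters of these genes are shown first, because the set splits into genes with and without a recognition sequence for E2F, the factor family that drives genes of the DNA synthesis phase. Windows of 300 bases, 250 before and 50 after each start site, were taken from RefSeq on GRCm38.p6, and all 10 genes matched, with 14 windows. The richest window of each gene held 17 to 57 CpG pairs (17 in Tet1, 57 in Tet2). Counted by window, 12 of the 14 held 17 or more, against 31.4% of all 32851 windows, whose median was 7. Dnmt1 also had windows with 12 and 2 pairs. The cut of 17 equals the lowest count among the richest windows, so every gene reaches it. The E2F letters searched on either strand were TTTCCCGC, TTTCGCGC, TTTGCCGC and TTTGGCGC, and their matches can overlap the GC box. A match was found in 2.26% of all windows and in 3 of the 14 windows here, those of Dnmt1, Ezh2 and Suz12. The GC box GGGCGG was present in 10 of the 14 windows and in 35.7% of all, and the CCAAT box in 5 of the 14 and in 37.4% of all. The 3 windows with an E2F match and that of Ezh1, the close relative of Ezh2 that has none, follow in the 5′ to 3′ direction of the gene, with the matched letters in capitals. They lie at chr9:20952574-20952873 on the minus strand (Dnmt1), chr6:47594981-47595280 on the minus strand (Ezh2), chr11:79992856-79993155 on the plus strand (Suz12) and chr11:101226414-101226713 on the minus strand (Ezh1).
Dnmt1: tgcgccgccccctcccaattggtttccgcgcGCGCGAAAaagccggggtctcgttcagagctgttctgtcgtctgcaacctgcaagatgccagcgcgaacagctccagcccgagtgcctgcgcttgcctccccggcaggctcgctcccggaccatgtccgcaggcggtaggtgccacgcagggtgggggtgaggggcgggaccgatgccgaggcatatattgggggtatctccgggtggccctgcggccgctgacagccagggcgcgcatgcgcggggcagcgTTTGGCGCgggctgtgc
Ezh2: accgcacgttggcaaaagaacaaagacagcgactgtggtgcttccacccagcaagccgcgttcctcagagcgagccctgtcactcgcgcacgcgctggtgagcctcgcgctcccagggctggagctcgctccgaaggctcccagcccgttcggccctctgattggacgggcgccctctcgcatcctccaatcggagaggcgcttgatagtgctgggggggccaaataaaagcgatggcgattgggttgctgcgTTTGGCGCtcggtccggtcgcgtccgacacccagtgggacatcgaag
Suz12: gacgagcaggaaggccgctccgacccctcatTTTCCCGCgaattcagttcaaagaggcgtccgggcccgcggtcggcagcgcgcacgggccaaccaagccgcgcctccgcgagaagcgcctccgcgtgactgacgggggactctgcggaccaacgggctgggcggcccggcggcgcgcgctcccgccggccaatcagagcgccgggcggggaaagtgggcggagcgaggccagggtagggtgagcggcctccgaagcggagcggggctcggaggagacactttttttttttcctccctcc
Ezh1: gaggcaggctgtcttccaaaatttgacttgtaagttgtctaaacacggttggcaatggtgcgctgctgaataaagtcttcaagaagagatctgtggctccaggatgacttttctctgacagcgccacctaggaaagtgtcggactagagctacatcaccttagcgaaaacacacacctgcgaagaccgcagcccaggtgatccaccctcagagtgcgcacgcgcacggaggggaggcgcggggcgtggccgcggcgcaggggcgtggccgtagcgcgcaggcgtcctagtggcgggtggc
These matches describe letters in the reference and are not measured sites.

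None of the 9 measured genes changed with age by the test used. Signals are given as log2 values relative to the 75th percentile of the array, so 0 is the signal at that percentile and 1 is a doubling. The ages were compared by limma across 23266 genes. Each was represented by its brightest probe and needed 3 or more of the 6 arrays with that probe well above background, with Benjamini-Hochberg adjustment at a threshold of 0.05. The 9 chosen probes met this on every array. Of the 9 genes, 5 had a higher and 4 a lower mean in old samples, log2 fold changes lay between -0.24 and 0.20, and limma adjusted p-values between 0.196 and 0.906. No gene of the set reached an unadjusted p under 0.05, which 28.9% of all tested genes did. Over all tested genes 8.39% passed the adjusted threshold, 4.38% higher and 4.01% lower in old samples, so 0 of 9 is near the background share. The 95% intervals of the 9 log2 fold changes ran from -0.53 to 0.52 at their outermost, that is from 0.692-fold to 1.43-fold, and all 9 lay inside -1 to 1, as did 81.9% of all tested genes. The test leaves changes within these bounds possible. In such bulk samples fewer cells of a type and less RNA per cell cannot be told apart.

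**Figure D1:**
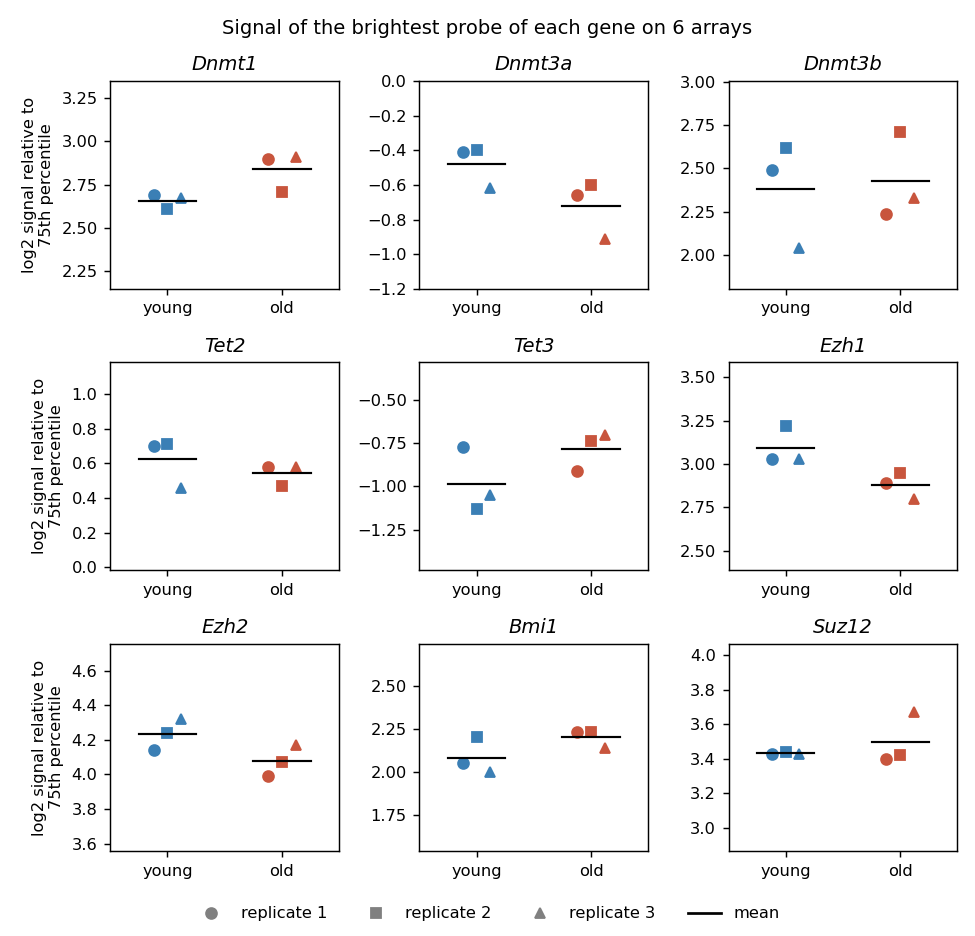
Log2 signal with the 75th percentile of the array set to 0 (y axis, each panel spanning 1.2 log2 units) of the brightest probe of 9 genes, with a point for each of the 3 young and 3 old arrays and a bar at each group mean. The groups are apart in Dnmt1 and Ezh1 and overlap in the other 7 genes.

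Among the methyltransferases, Dnmt1 was slightly higher and Dnmt3a slightly lower in the old group, with neither difference past the threshold. Dnmt1 (NM_010066) had signals of 2.69, 2.61 and 2.67 in young replicates 1 to 3 and of 2.90, 2.71 and 2.91 in old replicates 1 to 3. Every old array lay above every young one, with old replicate 2 close to young replicate 1, and the log2 fold change was 0.18 ± 0.09 (± SE, limma adjusted p = 0.240). Dnmt3a (NM_007872) gave -0.41, -0.40 and -0.62 in young and -0.66, -0.60 and -0.91 in old samples. Young replicate 3 fell within the range of the old arrays, so the groups overlapped, and the log2 fold change was -0.24 ± 0.12 (limma adjusted p = 0.239). Dnmt3b (NM_001003961) varied most within a group among the 9 chosen probes, at 2.49, 2.62 and 2.04 in young and 2.24, 2.71 and 2.33 in old samples, with a log2 fold change of 0.04 ± 0.20 (limma adjusted p = 0.906). Its sign turned with cyclic loess, the deposited values and normexp background correction. The other probes of this gene carry the same accession. The second gave 1.31, 1.1 and 1.01 against 1.36, 1.53 and 1.49, groups that did not overlap, and a log2 fold change of 0.32 ± 0.11 with an adjusted p of 0.134 when limma was run on each probe. The third overlapped, with a log2 fold change of 0.09 ± 0.19.

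The Tet enzymes were measured by 5 probes, and again no probe passed. Tet2 (NM_001040400) had 0.70, 0.71 and 0.46 in young and 0.58, 0.47 and 0.58 in old samples. The groups overlapped, and the log2 fold change was -0.08 ± 0.10 (limma adjusted p = 0.638), with -0.13 ± 0.12 for the second Tet2 probe. For Tet3 (NM_183138) the young values of -0.77, -1.13 and -1.05 and the old values of -0.91, -0.74 and -0.70 also overlapped, because young replicate 1 lay among the old arrays. Its log2 fold change was 0.20 ± 0.12 (limma adjusted p = 0.338), and the other Tet3 probes gave 0.17 ± 0.16 and 0.22 ± 0.13. Probes of the same gene thus had the same sign for Tet2 and for Tet3, and they share their RNA and are not replicates.

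In PRC2, the methyltransferases Ezh1 and Ezh2 were both slightly lower in the old group, and the scaffold Suz12 had a log2 fold change near 0, none of them past the threshold. Ezh1 (NM_007970) read 3.03, 3.22 and 3.03 in young and 2.89, 2.95 and 2.80 in old samples. No old array reached the lowest young one, and the log2 fold change of -0.21 ± 0.09 had the smallest adjusted p of the set (limma, 0.196). A second Ezh1 probe read 0.93 and 1.05 in young replicates 1 and 2, 0.86, 0.92 and 0.78 in old replicates 1 to 3, and -6.44 in young replicate 3. The spot on young replicate 3 was not well above background and was not marked as an outlier by the scanner software, and the same array read 3.03 with the brightest probe, so the log2 fold change of 2.34 ± 1.99 for this probe rests on that spot. The third Ezh1 probe was dim, between -4.35 and -3.41, and well above background on 5 of the 6 arrays, with a log2 fold change of -0.02 ± 0.29. Ezh2 (NM_007971) gave 4.14, 4.24 and 4.32 in young and 3.99, 4.07 and 4.17 in old samples. Here old replicate 3 lay above young replicate 1, and the log2 fold change was -0.16 ± 0.09 (limma adjusted p = 0.309). Suz12 (NM_199196) was almost the same on the young arrays, at 3.43, 3.44 and 3.43, and read 3.40, 3.42 and 3.67 on the old ones. Its log2 fold change was 0.06 ± 0.10 (limma adjusted p = 0.707), and the sign turned with cyclic loess and with normexp.

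Bmi1 (NM_007552), a PRC1 subunit that in mice holds down the Cdkn2a locus, had 2.05, 2.20 and 2.0 in young and 2.23, 2.23 and 2.14 in old samples. Old replicate 3 lay below young replicate 2, and the log2 fold change was 0.12 ± 0.09 (limma adjusted p = 0.432). The second Bmi1 probe gave 0.02 ± 0.10. Over the 17 probes, the groups did not overlap in 3, against 36.2% of the 31286 probes tested each on its own, and for the chosen probes they did not overlap in 2 of 9 genes, against 37.1% of all genes. None of the 17 probes passed when each was tested on its own, where 8.10% of all probes did.

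**Figure D2:**
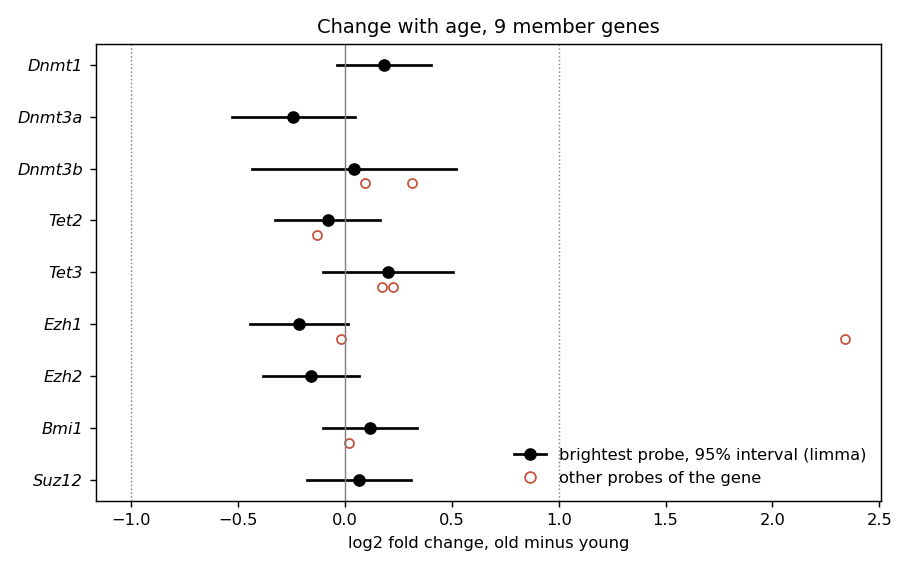
Log2 fold change, old minus young, of 9 genes (x axis). Filled points with bars are the brightest probe and its 95% interval from limma, and open points are the other probes. All 9 intervals lie between -0.53 and 0.52, and the open Ezh1 point at 2.34 rests on a dark spot of young replicate 3.

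Differences between pairs of genes on the same array are free of any single scaling factor of that array, though not of corrections that depend on the signal. The comparison covered 6 such pairs, with an exact two-sided permutation test, which cannot go below p = 0.10 with 3 against 3. Each value is the log2 signal of the first gene's probe minus that of the second. Its level depends on the probes, so only its change with age is read. The difference Dnmt1 minus Dnmt3a was 3.1, 3.02 and 3.28 in young and 3.56, 3.31 and 3.81 in old samples. The groups did not overlap, and the mean rose from 3.13 ± 0.14 to 3.56 ± 0.25 (SD, n = 3 each), a change of 0.42 (exact permutation p = 0.10, 0.20 after adjustment over the 6 pairs). With normexp background correction this change was 0.22. Bmi1 minus Ezh1 was the tightest, at -0.99, -1.02 and -1.03 in young and -0.67, -0.72 and -0.66 in old samples. Its change was 0.33, with an SD of 0.02 in young and 0.03 in old samples (n = 3 each). These SDs are the smallest among the pairs and are no yardstick for the change. Its exact permutation p was likewise 0.10, or 0.20 adjusted. Suz12 minus Ezh2 changed by 0.22 with groups apart (exact permutation p = 0.10, adjusted 0.20). Ezh2 minus Ezh1 changed by 0.06, Tet3 minus Tet2 by 0.28 and Dnmt3b minus Dnmt3a by 0.29, and in these 3 pairs the groups overlapped (exact permutation p = 0.60, 0.20 and 0.30). With normexp the change of Dnmt3b minus Dnmt3a was 0.10. The groups were thus apart in 3 of the 6 pairs, against 34.7% of all pairs of tested genes, a share that 3 of 6 does not set apart. Such a difference shows unequal signals of the genes in the pair and not which of them changed. With the mean of all probes of a gene the Bmi1 minus Ezh1 change was -0.63 and the Ezh2 minus Ezh1 change -0.86, both of which include the dark Ezh1 spot. With the mean over probes measured on all 6 arrays they were 0.28 and 0.06.

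**Figure D3:**
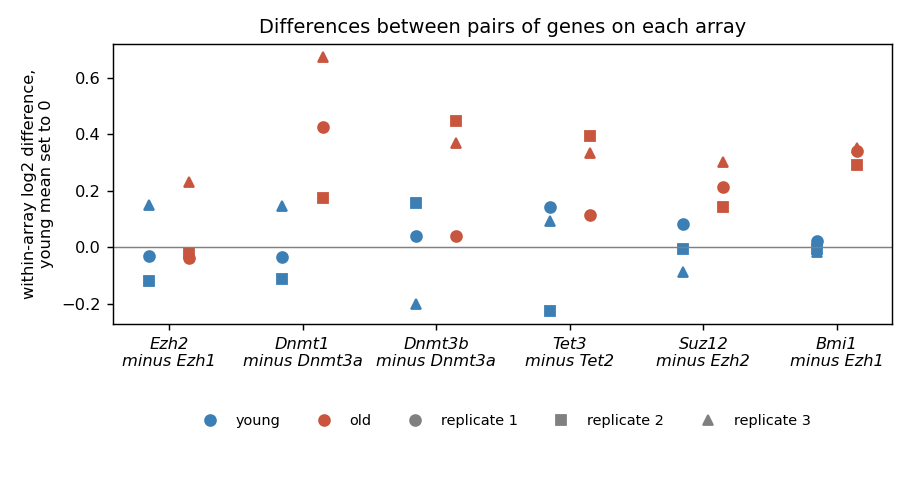
Within-array log2 difference between the probes of 6 gene pairs (y axis, shifted so that the mean of the 3 young arrays is 0), with a point for each of 3 young and 3 old arrays. The groups are apart for Dnmt1 minus Dnmt3a, Suz12 minus Ezh2 and Bmi1 minus Ezh1 and overlap for the other 3 pairs, against 34.7% of all gene pairs apart.

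Of the genes of related function 5 passed. In 9 lists of related genes, 139 of 170 genes were tested, 4 rose and 1 fell, or 3.60% against 8.39% of all tested genes, and the median log2 fold change was -0.01 against 0.08 over all tested genes. Without the replication and mitosis lists, which held no call, the 5 calls were 5.81% of 86 tested genes. Among 23 readers, partners and repair enzymes of DNA methylation, 2 rose and 21 did not pass. Tdg (NM_172552), the glycosylase that cuts out the oxidised bases made by Tet enzymes, rose from 0.37, 0.68 and 0.52 to 1.16, 1.07 and 1.39, a log2 fold change of 0.68 ± 0.13 (limma adjusted p = 0.0342). Its 2 other probes gave 0.02 and 0.52, neither past the threshold. Zbtb38 (NM_175537), a zinc finger protein that binds methylated DNA, rose from -0.64, -0.61 and -0.84 to -0.21, 0.03 and 0.10, by 0.67 ± 0.12 (limma adjusted p = 0.0309). For Uhrf1, which brings Dnmt1 to newly copied DNA, the log2 fold change was 0.01 ± 0.10. This gene was named after its value was seen, as were Eed, Mki67, Cdkn2a, Cdkn2b, the germline genes other than Brdt and the cell type markers below.

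Of 8 further PRC2 subunits tested, Phf1 fell and the other 7 did not pass. Phf1 (NM_009343), an accessory subunit that recruits PRC2, went from 0.07, 0.08 and 0.47 in young to -0.40, -0.47 and -0.86 in old samples, a log2 fold change of -0.78 ± 0.17 (limma adjusted p = 0.0463). Its second, dimmer probe gave -0.66 and no call. That probe was well above background on 3 young and 0 old arrays, so it was tested only through the group where it was high and adds no support. With normexp its change was 0.13. The core subunit Eed differed by -0.02 ± 0.07. None of 20 PRC1 subunits passed. Pcgf1, an alternative to Bmi1 in PRC1, had the groups apart with a log2 fold change of 0.25 ± 0.08 (limma adjusted p = 0.118). Pcgf2, the closest relative of Bmi1, had 0.47 ± 0.15 (limma adjusted p = 0.110). Its probe was dim and well above background on 3 of the 6 arrays, 2 young and 1 old, so fewer in the group with the higher mean. None of 8 enzymes that remove Polycomb marks or their cofactors passed either. Kdm6a, a demethylase of the PRC2 mark, read 0.28, 0.36 and 0.33 in young and 0.89, 0.65 and 1.19 in old samples, a log2 fold change of 0.59 ± 0.15 that missed the threshold (limma adjusted p = 0.0614), and its relative Kdm6b had -0.21 ± 0.11. Among 17 other histone methyltransferases Suv39h1 (NM_011514), an enzyme of heterochromatin, rose from 3.03, 2.93 and 2.70 to 3.56, 3.47 and 3.94, by 0.77 ± 0.16 (limma adjusted p = 0.0407).

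Genes that Polycomb or DNA methylation is known to keep silent were mostly not measurable at either age. Of 19 genes held by Polycomb, no array showed 11 well above background, among them Cdkn2a and Cdkn2b, whose products stop the cell cycle. The 6 that were tested did not pass. The nearest were Hoxc6, at -3.94, -3.79 and -3.91 in young and -3.41, -3.60 and -3.39 in old samples (log2 fold change 0.41 ± 0.10, limma adjusted p = 0.0548), and Hoxa9 with 0.27 ± 0.08 (limma adjusted p = 0.0825). Of 16 germline genes silenced by DNA methylation, no array showed 12 well above background, including Dazl, Mael and Sycp3. The other 4 were measured on every array. Among these Brdt (NM_001079873), a bromodomain protein of the testis, rose from 0.21, -0.15 and -0.04 to 0.47, 0.57 and 0.74, by 0.59 ± 0.13 (limma adjusted p = 0.0451), and Ddx4, Taf7l and Sohlh2 did not pass. The other Brdt probe did not meet the background filter and was not tested on its own.

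**Figure D4:**
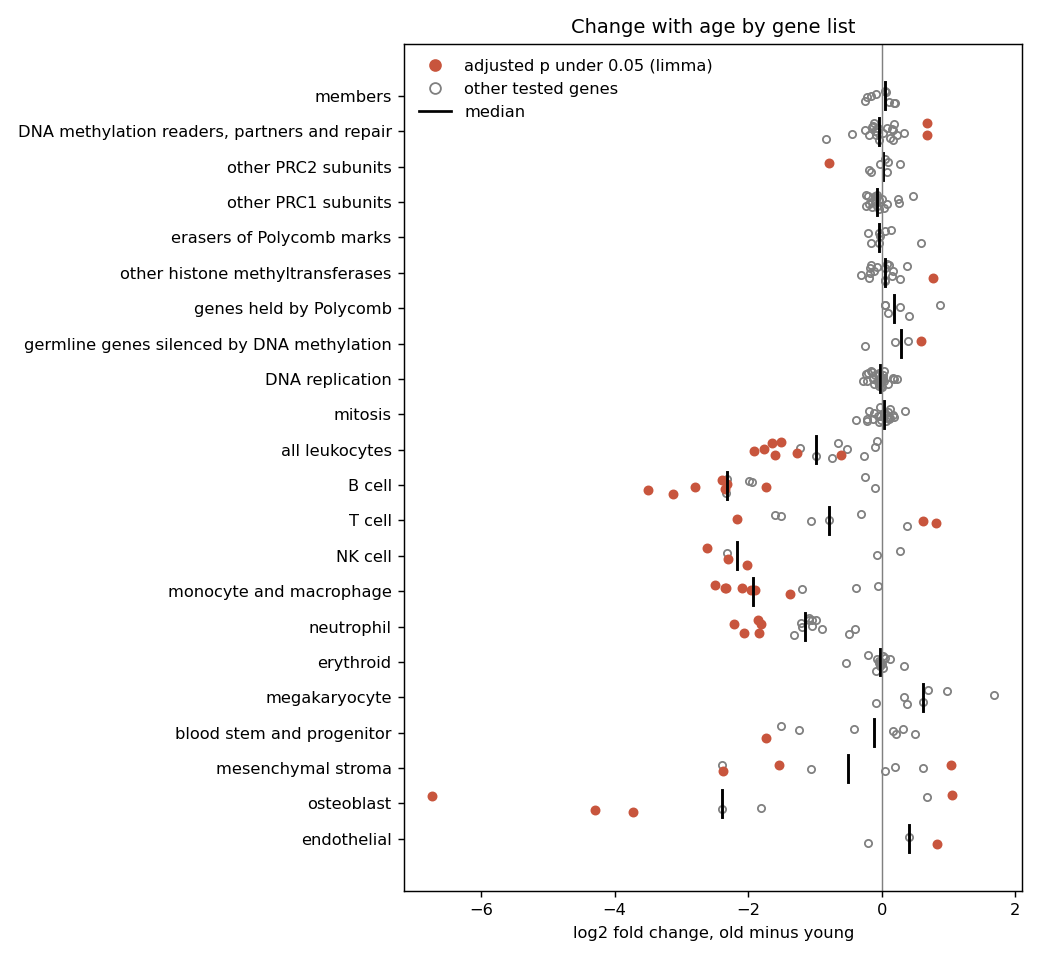
Log2 fold change, old minus young, of each tested gene (x axis) in the set itself (members), 9 lists of related genes and 12 lists of cell type markers, with the list median as a bar and genes past the limma threshold filled. Members lie between -0.24 and 0.20, and leukocyte, B cell and monocyte markers lie to the left. Values of genes not well above background in a group, such as the lowest osteoblast gene, are fitted values and not sizes of a change.

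Dnmt1, Ezh2 and Uhrf1 are made mainly in dividing cells, so genes of DNA replication and mitosis were set beside them. None of 29 replication and none of 24 mitosis genes passed, with median log2 fold changes of -0.02 and 0.04. An unadjusted limma p under 0.05 was found in 4 of the 53, against 28.9% of all tested genes. The nearest to the threshold were Chaf1b (0.23 ± 0.08) and Pcna (-0.23 ± 0.09) for replication and Kif11 (0.35 ± 0.10) and Ccnb2 (-0.22 ± 0.08) for mitosis, with limma adjusted p between 0.0901 and 0.159. The proliferation marker Mki67 differed by 0.13 ± 0.11. These values moved with the scaling. The replication median was -0.15 with cyclic loess, -0.15 with the deposited values, -0.16 with quantile normalization and -0.11 with normexp, and the mitosis median turned to -0.07, -0.06, -0.06 and -0.01. Pcna reached -0.41 (limma adjusted p = 0.0520) and Ccnb2 -0.36 (0.0504) with quantile normalization, both just short of a call. Chaf1b was 0.08 there (limma adjusted p = 0.544). With the deposited values Pcna and Ccnb2 were also just short (limma adjusted p = 0.0514 and 0.0501). Ccnb2 passed with normexp (-0.33, limma adjusted p = 0.0369), and Chaf1b, Kif11 and Ccnb2 passed with a trend in eBayes (limma adjusted p of 0.0414 to 0.0452).

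Markers of several blood cells did move with age in the same samples. The counts below stand beside 4.38% of all tested genes past the threshold and higher, and 4.01% lower, in old samples. Of 15 genes shared by all leukocytes 7 fell, and the list's signal, summed over its tested genes in multiples of the 75th percentile, was 124 to 208 on the young and 76.9 to 86.2 on the old arrays. B cell genes fell in 7 of 13 tested members, with a summed signal of 38.6 to 73.7 against 7.94 to 16.0, and monocyte and macrophage genes in 7 of 10. Among these calls Ebf1 and Rag1 were well above background on 3 young and 1 old array and Fcgr1 and Mrc1 on 3 young and 0 old arrays, so they were tested only through the group where they were high, and the counts support nothing by themselves. Of 16 neutrophil genes 5 fell, with a summed signal of 1648 to 2571 against 1067 to 1377, and of 6 tested NK cell genes 3 fell. Of these 3 NK cell genes, Klrb1c and Klre1 were well above background on 3 young and 0 old arrays, so the same limit applies. Among 9 tested T cell genes Cd3e and Cd8a rose and Tcf7, well above background on 0 old arrays, fell. The median log2 fold change of this list was -0.78. Of its uncalled genes, Cd4 had a higher and Cd3d, Cd3g, Cd2, Lck and Cd5 a lower mean in old samples. None of 7 megakaryocyte genes passed, 1 of 8 genes of blood stem and progenitor cells fell, and 1 of 3 endothelial genes rose. None of 15 erythroid genes passed (1225 to 1458 against 1314 to 1379). The summed signal of the 9 enzyme genes was 55.7 to 58.7 on the young and 53.4 to 57.2 on the old arrays. The part of these marker changes in the enzyme values was not tested. Markers of the labelled cell type were partly absent. Of 14 markers of mesenchymal stroma, no array showed 6 well above background, namely Pdgfra, Pdgfrb, Prrx1, Twist1, Foxc1 and Grem1, and of the other 8 tested, 1 rose and 2 fell. Lepr rose by 1.03 ± 0.15, Cxcl12 fell by 2.38 ± 0.43 and Thy1 fell by 1.54 ± 0.33 on the log2 scale, and the median log2 fold change was -0.51. Their summed signal, which follows the bright Lepr probe, was 19.4 to 22.8 in young and 30.4 to 37.1 in old samples. Of 7 tested osteoblast genes Col1a1, Sparc and Bglap2 fell and Sp7 rose, and the list summed to 3.36 to 20.9 in young and 1.22 to 1.54 in old samples. Col1a1 was well above background on no old array.

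No member passed the threshold, so the genes of most similar pattern were looked up for the 2 members with the smallest p. The measure was the root mean square difference over the 6 arrays after each gene's mean was removed. Closest to Ezh1 were Zbtb39, Zfp746 and Armcx5, at differences of 0.02 to 0.03 log2 units, and closest to Dnmt3a were Pisd, Aurkc and Tbc1d5, also at 0.02 to 0.03. Their own log2 fold changes lay between -0.25 and -0.21. With about 0.2 log2 units between the ages and 13548 tested genes with a symbol, many genes can lie this close.

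Across the array, 1020 genes were higher and 933 lower in old samples among the 1953 past the threshold, so 52.2% were higher. This share was 42% with cyclic loess, 39.0% with the deposited values and 69.0% with normexp. The old arrays were dimmer, with a 75th percentile of 229 to 319 intensity units against 315 to 393, and 50.9% to 53.4% of probes well above background against 55.3% to 60.0%. Each age filled its own row of the slide, so slide row cannot be told apart from age. The number of genes past the threshold was 831, 72 and 305 without young replicate 1, 2 or 3 and 1262, 1 and 0 without old replicate 1, 2 or 3 (limma, 5128 at an unadjusted p under 0.05 in the last), so the background share of 8.39% depends on the arrays used. Tdg, Phf1, Suv39h1 and Brdt lost their calls with any array left out, and Zbtb38 passed without old replicate 1 (0.76, limma adjusted p = 0.0392) and in no other such fit. Their log2 fold changes kept their direction, at 0.60 to 0.76 for Zbtb38, 0.59 to 0.76 for Tdg, -0.87 to -0.64 for Phf1, 0.63 to 0.86 for Suv39h1 and 0.51 to 0.69 for Brdt. None of the 9 enzyme genes passed with any array left out. Over 11 other settings with all arrays the log2 fold change lay between 0.10 and 0.18 for Dnmt1, between -0.33 and -0.12 for Dnmt3a and between -0.15 and -0.08 for Tet2. It lay between 0.09 and 0.20 for Tet3, between -0.26 and -0.16 for Ezh2 and between 0.04 and 0.12 for Bmi1. Settings that alter only the test or the filter leave these values unchanged by construction. The ranges therefore come only from the other scalings, sources of values and probe means. For Dnmt1, with 1 probe, the log2 fold change was 0.10 with cyclic loess and normexp, 0.13 with the deposited values and 0.14 with quantile normalization, all below the main 0.18.

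**Figure D5:**
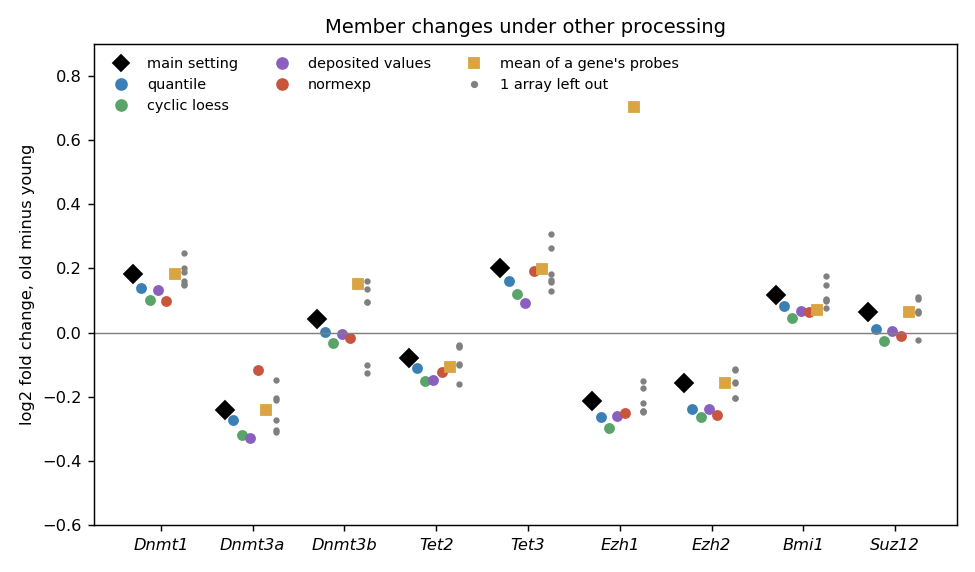
Log2 fold change, old minus young, of 9 genes (y axis) with the main setting (diamond), 4 other scalings or sources of values and the mean of a gene's probes (coloured), and with each of 6 arrays left out (grey). The Ezh1 value of 0.70 with the mean of its probes includes the dark spot, and the others lie between -0.33 and 0.31.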

How the data were processed

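RNA of 6 samples, 3 per age, was measured on 6 Agilent 1-colour arrays. The authors deposited each array's scanner file, whose processed intensity is background-subtracted and detrended within the array and not scaled between arrays. Per the file headers, Feature Extraction was version 10.7.3.1 and the design was annotated on mm9, while the submitters' processing notes name 10.5.1.1. The deposited table of log2 values (52095 of 55681 probes, column medians 4.87 to 4.95, correlating with the log2 processed intensity of the same array at 0.9986 to 0.9995 across probes) served as an alternative, and its scaling was not given in the sources used.

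Control and outlier spots were left out, spots of a probe were averaged as log2 values, and each array's 75th percentile of processed intensity was subtracted. Symbols came from RefSeq accessions without version on GRCm38.p6, which named 47.4% of probes. limma 3.58.1 in R 4.3.3 (lmFit, eBayes, no covariates) compared old with young, with Python 3.11.15 and pandas 2.3.3 for the tables. The fit was tested on simulated data drawn from the means and spreads of the real genes. It recovered 14% of added changes of 0.5 log2 units, 55.5% of those of 1 and 84.5% of those of 2. Of its calls 4.12% were false. The precision is limited by the number of arrays.

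The members, the lists and the tests were chosen with earlier results of these data known. The text names all members, the 4 genes with the smallest p among those past the threshold in each related list (or the 2 smallest where none passed), and 3 genes of like pattern for each of 2 members. Marker lists serve only to describe the samples.

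Replicate numbers are shared between the ages in the labels. Same-numbered samples did not deviate together from their group means (correlation -0.03, 0.02 and -0.01 across genes), so the numbers were not taken to pair samples. The normexp alternative used the median signals, since the files hold no mean signal column.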

Additional observations from a re-analysis of the deposited data

How the results depend on the processing

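None of the 9 enzyme genes passed the threshold under any of the 17 alternatives run, 6 of which leave out 1 array each. Their unadjusted limma p was under 0.05 in 3 genes with the deposited values, in 3 with cyclic loess and in at most 2 elsewhere. With normexp, chosen with its median signals after the files were seen, Dnmt3b was -0.016 and Suz12 -0.011, with cyclic loess they were -0.033 and -0.027, and with the deposited values Dnmt3b was -0.0060. Leaving out 1 array moved Dnmt3b between -0.13 and 0.16 and Suz12 between -0.022 and 0.11. With the mean of a gene's probes Ezh1 was 0.70, the change of Ezh2 minus Ezh1 was -0.86 and that of Bmi1 minus Ezh1 -0.63. The mean over probes measured on all 6 arrays, added after the dark Ezh1 spot was seen, gave -0.21 for Ezh1. Ezh2 minus Ezh1 changed by -0.0058 with normexp and by -0.031 to 0.13 with 1 array left out. The count of genes past the threshold, 1953 in the main setting, was 3555 with a trend in eBayes, 3373 with normexp, 0 without the filter on dim probes (11933 at an unadjusted limma p under 0.05) and 0 to 1262 with 1 array left out. With the replicate number as a block it was 0 (limma, 5683 unadjusted) and the members stayed uncalled. The members' log2 fold changes and the 6 pair changes cannot move with this block, since each replicate number occurs once per age. Of the genes in the 9 related lists, 5 passed in the main setting, 10 with a trend, 9 with normexp, 8 when all 6 arrays had to be well above background, 2 with cyclic loess, 2 with the mean of a gene's probes, 0 without the filter and with the replicate block, and 0 to 1 with 1 array left out. Calls were lost at log2 fold changes close to the main ones for Phf1 with cyclic loess (-0.86, limma adjusted p = 0.0519) and quantile normalization (-0.81, 0.0515), Suv39h1 with cyclic loess (0.68, 0.0553), and Brdt with cyclic loess (0.52, 0.0637) and the deposited values (0.50, 0.0628). With the mean of a gene's probes Phf1 (-0.72, limma adjusted p = 0.0722) and Brdt (0.68, 0.0879) were also lost, and Tdg was lost at 0.40 (0.0691). Kdm6a, uncalled in the main setting, passed with a trend in eBayes (limma adjusted p = 0.0248) and with normexp (0.0320). It also passed when all 6 arrays had to be well above background (0.0439). Hoxc6 passed with normexp (limma adjusted p = 0.0202) and with that filter (0.0409). Except for the Ezh1 spot, the cause of these shifts was not tested.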
